A study of Mus musculus with 24 samples.

Results

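Collagens are the main structural proteins of the extracellular matrix, and the collagen genes were taken as every probe set whose single gene symbol has the form of a collagen chain, Col followed by its type and chain number. The rule gave 43 genes with 1 probe set each, of 21144 genes tested and 22206 probe sets in all. They comprised 11 fibrillar chains, 6 chains of basement membrane collagen IV and 26 other chains, namely 9 FACIT chains, 6 chains of the beaded-filament collagen VI, 3 short-chain network chains, 2 multiplexins, 4 transmembrane chains, Col26a1 and Col28a1. A probe set that lists Col7a1 together with a second gene was left out. No collagen probe set shared its values with another probe set.

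Liver RNA of 24 male C57BL/6J mice, 8 to 10 weeks old at inclusion, was measured on Affymetrix microarrays, each mouse on its own array, in groups of 3 mice. In the CCl4 experiment, NRAS-/- and wildtype mice received the hepatotoxin carbon tetrachloride (CCl4) in corn oil or corn oil alone for 4 weeks, which gave the groups NRAS-/- CCl4 (mice N30 to N32), wildtype CCl4 (N24 to N26), NRAS-/- oil (N27 to N29) and wildtype oil (N21 to N23). In the BDL experiment, mice had bile duct ligation (BDL) or a sham operation and were killed on day 28, which gave NRAS-/- BDL (N10 to N12), wildtype BDL (N04 to N06), NRAS-/- sham (N07 to N09) and wildtype sham (N01 to N03). NRAS-/- mice lack N-RAS in all cells, so the arrays do not tell in which liver cell its absence acted. With 3 arrays in each group the precision is limited throughout. The p-values set each difference against the spread between mice within groups. That spread was estimated over all groups of a fit and drawn towards that of other genes. Arrays outside a comparison therefore also bear on its calls.

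The log2 signal of Nras was 4.55 to 5.55 in the NRAS-/- livers and 5.92 to 8.04 in the wildtype livers, and the genotypes did not overlap. Hepatocyte markers were high on all arrays (list mean 12.53 to 13.20 over 5 genes). Several arrays went against the labels or stood apart. Averaged over 4 Y-linked genes, the log2 signal was 3.0 to 3.59 on 6 arrays (all 3 NRAS-/- sham, wildtype sham N01 and N03, and NRAS-/- oil N28), against 6.84 to 8.25 on the other 18, although all mice are labelled male. In NRAS-/- mice, BDL and sham therefore cannot be told apart from high and low Y-linked signal. NRAS-/- BDL mouse N12 carried skeletal muscle transcripts (list mean 8.33 over 7 genes, against 3.75 to 4.38 on all other arrays), and its mean over 8 stellate cell and myofibroblast markers, which include desmin, also a muscle protein, was also the highest of all arrays (8.01). Collagen calls that rest on these arrays are given with and without them where such a fit was possible.

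In a fibrillar collagen, 3 chains wind into a triple helix and the helices pack side by side into fibrils. Type I collagen (Col1a1 and Col1a2) and type III collagen (Col3a1) form the bulk of scar tissue, and type V chains sit in the same fibrils and regulate their diameter. Collagen IV forms a sheet-like network under epithelia and around vessels, and collagen VI forms fine filaments that anchor cells. In the injured liver, activated hepatic stellate cells and, after bile duct obstruction, portal fibroblasts are the main producers of fibrillar collagen. In liver tissue, more collagen-producing cells and more transcript per cell cannot be told apart.

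The upstream sequences of Col1a2 and Col3a1, the chains with the steepest rise after BDL, and of Col18a1, the chain that fell most after CCl4, are shown because these genes carry the main contrasts below. Each line is the 250 bases before an annotated start (RefSeq, GRCm38.p6), read 5′ to 3′ on the gene's strand, and capitals mark the motifs CCAAT (the box bound by NF-Y), CAGACA (the core of the CAGA box bound by SMAD3) and TATAAA (the TATA box) on either strand, so that a motif on the opposite strand appears as its reverse complement.
Col1a2, chr6:4505368-4505617, plus strand: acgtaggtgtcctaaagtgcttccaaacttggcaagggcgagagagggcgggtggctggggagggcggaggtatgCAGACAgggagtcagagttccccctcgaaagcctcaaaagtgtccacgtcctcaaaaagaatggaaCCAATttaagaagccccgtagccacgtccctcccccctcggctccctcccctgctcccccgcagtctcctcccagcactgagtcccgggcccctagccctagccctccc
Col3a1, chr1:45311288-45311537, plus strand: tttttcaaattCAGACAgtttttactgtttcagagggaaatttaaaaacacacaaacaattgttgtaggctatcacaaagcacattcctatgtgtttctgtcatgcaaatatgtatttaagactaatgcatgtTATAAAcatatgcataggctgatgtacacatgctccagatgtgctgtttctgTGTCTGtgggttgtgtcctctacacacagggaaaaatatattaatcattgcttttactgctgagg
Col18a1, first of 2 starts, chr10:77166531-77166780, minus strand: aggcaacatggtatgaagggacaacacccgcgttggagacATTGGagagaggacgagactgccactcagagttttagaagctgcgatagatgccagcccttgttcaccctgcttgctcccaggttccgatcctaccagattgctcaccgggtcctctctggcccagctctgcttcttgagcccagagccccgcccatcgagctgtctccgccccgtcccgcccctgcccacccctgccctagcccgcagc
Col18a1, second start, chr10:77113706-77113955, minus strand: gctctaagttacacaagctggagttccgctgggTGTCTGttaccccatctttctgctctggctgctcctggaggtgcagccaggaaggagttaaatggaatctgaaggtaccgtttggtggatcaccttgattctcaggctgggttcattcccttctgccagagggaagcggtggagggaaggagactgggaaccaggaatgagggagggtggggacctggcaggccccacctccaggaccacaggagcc
Col1a2 held 1 CCAAT and 1 CAGACA, Col3a1 held 2 CAGACA and 1 TATAAA, and Col18a1 held 1 CCAAT at the first start and 1 CAGACA at the second. Upstream sequences were matched for 34 of the 43 genes (37 starts). CCAAT was found at 32.4% of these starts and at 33.8% of all 32851 starts, CAGACA at 21.6% and 17.1%, and TATAAA at 13.5% and 12.4%, and no 2 of the motifs overlap in their letters. These matches describe the letters of the windows only.

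The first question was which collagen genes responded to BDL. The chains of collagen I and III rose in both genotypes. Col3a1 was 8.54-fold higher after BDL in NRAS-/- livers and 4.35-fold higher in wildtype livers, Col1a2 was 4.19-fold and 3.30-fold higher, and Col1a1 was 2.37-fold and 2.11-fold higher. With limma and an adjusted p under 0.05, 8 of 43 collagen genes were called higher and 0 lower after BDL in NRAS-/- mice, where 7.18% of all genes were called higher and 4.05% lower. In wildtype mice 6 were called higher and 0 lower, against 4.51% and 2.70% of all genes, and at an unadjusted p under 0.05 there were 2 collagen genes on the lower side in each genotype. All 6 genes called in wildtype mice (Col1a1, Col1a2, Col3a1, Col4a2, Col6a2, Col6a3) were among the 8 called in NRAS-/- mice, which also held Col5a1 and Col5a2. By class, 5 of 11 fibrillar, 1 of 6 basement membrane and 2 of 26 other chains were called in NRAS-/- mice, and 3, 1 and 2 in wildtype mice. The median change was 0.08, 0.14 and -0.09 in NRAS-/- mice and -0.04, 0.29 and -0.07 in wildtype mice for the same classes, against -0.03 and -0.01 over all genes, so within the fibrillar class a few chains moved far and the others stayed near 0.

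**Figure D1:**
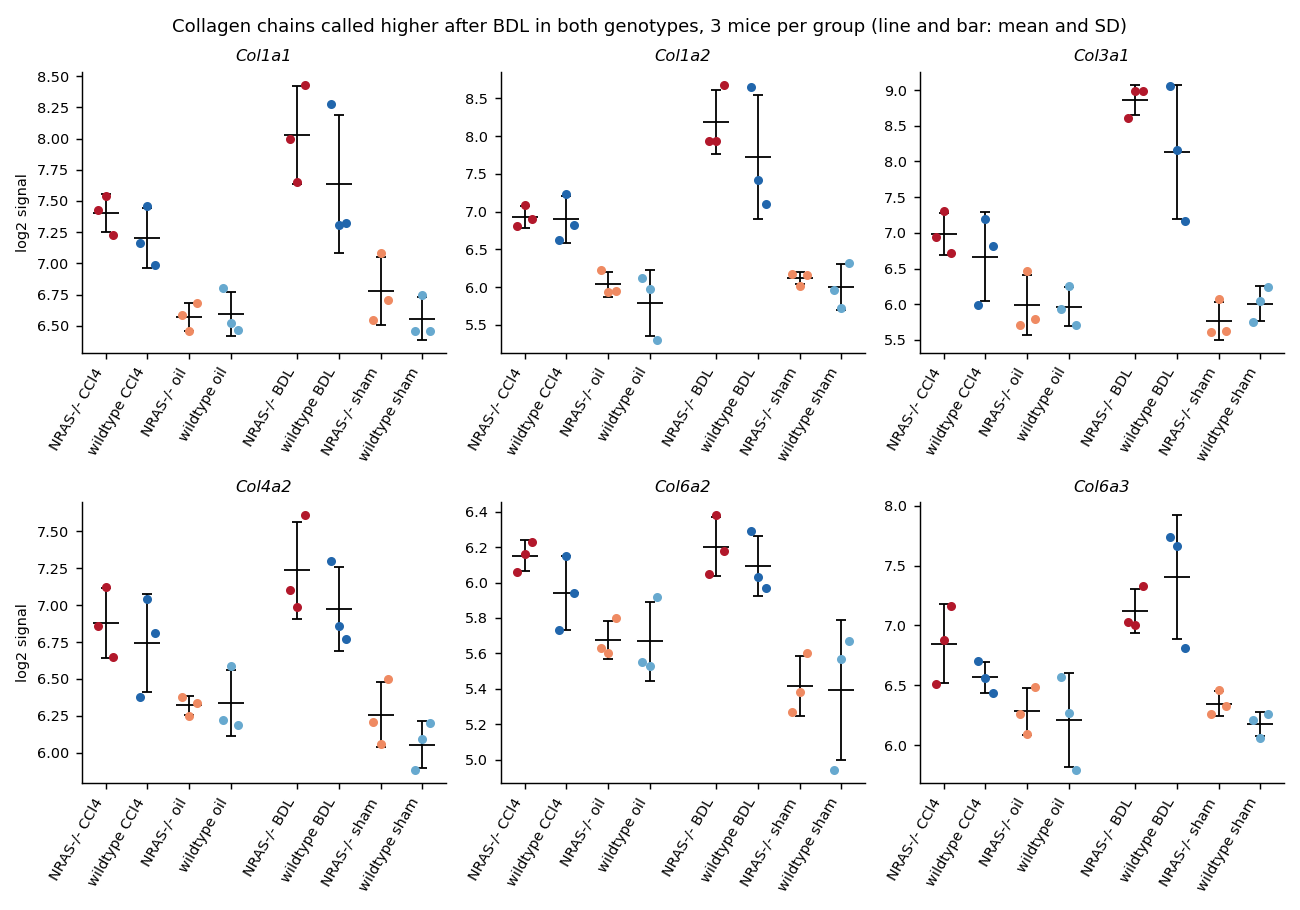
Log2 signal (vertical axis) of 6 collagen chains on each array, grouped by genotype and treatment along the horizontal axis. Points are mice, long ticks are group means and bars are SD (n = 3). In both genotypes the BDL mice lie above all sham mice for Col1a2 and Col3a1, and the 3 NRAS-/- BDL mice reach 8.61 to 8.99 for Col3a1.

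The log2 signal of Col3a1, the single chain of the homotrimer collagen III, was 8.61, 8.98 and 8.99 in NRAS-/- BDL mice N10, N11 and N12, against 5.61, 6.07 and 5.62 in NRAS-/- sham mice. In wildtype mice it was 9.06, 8.16 and 7.17 after BDL (N04, N05 and N06), against 5.75, 6.04 and 6.24 after sham. No BDL value overlapped a sham value, and the wildtype BDL mice spread over a far wider range than the NRAS-/- BDL mice. The log2 fold change was 3.09 (SE 0.34, adjusted p = 6.3e-05 with limma, rank 22 of 21144 genes by size) in NRAS-/- and 2.12 (SE 0.34, adjusted p = 0.00148) in wildtype mice.

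Col1a2, which encodes the α2 chain of collagen I, had log2 signals of 7.94, 7.94 and 8.68 in NRAS-/- BDL mice, against 6.18, 6.02 and 6.16 in NRAS-/- sham mice. Wildtype values were 8.65, 7.42 and 7.10 after BDL and 5.96, 5.72 and 6.32 after sham. The groups were again fully separated, with a log2 fold change of 2.07 (SE 0.32, adjusted p = 0.000842) in NRAS-/- and 1.72 (SE 0.32, adjusted p = 0.00465) in wildtype mice. Col1a1, the α1 chain, gave 8.0, 7.65 and 8.43 in NRAS-/- BDL mice against 6.55, 7.08 and 6.71 in NRAS-/- sham mice, and 8.28, 7.31 and 7.32 in wildtype BDL mice against 6.46, 6.75 and 6.46 in wildtype sham mice. Its log2 fold change was 1.25 (SE 0.26, adjusted p = 0.006) in NRAS-/- and 1.08 (SE 0.26, adjusted p = 0.0204) in wildtype mice. In wildtype mice the Col1a1 call was lost without N01, N03 or N04 (adjusted p up to 0.0787), and the lowest log2 fold change with 1 array left out was 0.76. The calls of Col1a2 and Col3a1 held without any single array in both genotypes, and that of Col1a1 did so in NRAS-/- mice.

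Of the type V chains, Col5a1 and Col5a2 were called in NRAS-/- mice. Col5a2, a partner of Col5a1 in collagen V, had log2 signals of 5.24, 5.28 and 5.54 in NRAS-/- BDL mice, against 4.31, 4.35 and 4.26 in NRAS-/- sham mice, and 5.47, 5.21 and 4.93 in wildtype BDL mice against 4.62, 5.01 and 4.73 in wildtype sham mice. Col5a1 gave 4.87, 5.50 and 5.19 in NRAS-/- BDL mice against 4.45, 4.42 and 4.34 in NRAS-/- sham mice, and 5.87, 4.76 and 5.18 in wildtype BDL mice against 5.06, 5.22 and 4.93 in wildtype sham mice. The NRAS-/- groups did not overlap for either chain and the wildtype groups overlapped for both. In NRAS-/- mice the log2 fold change was 1.05 for Col5a2 (SE 0.16, adjusted p = 0.000717) and 0.78 for Col5a1 (SE 0.23, adjusted p = 0.0467), and in wildtype mice it was 0.42 (adjusted p = 0.148) and 0.20 (adjusted p = 0.733). Between NRAS-/- and wildtype sham mice neither chain was called. Col5a2 was 0.48 lower and Col5a1 0.67 lower in NRAS-/- sham mice on the log2 scale (limma adjusted p = 0.402 and 0.448). These were the collagen genes with the smallest p in that comparison. The Col5a1 call in NRAS-/- mice was lost without any 1 of N01, N03, N06, N07, N08, N09, N11 and N12 (adjusted p up to 0.185). The Col5a2 call held without any single array. Both calls were lost under a floor of 32 on the linear scale, where the log2 fold change of Col5a2 was 0.35. With the Y-linked signal as a term of the fit both were lost as well.

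Among basement membrane chains, Col4a2 rose and its partner Col4a1 was not called. Col4a1 and Col4a2 together build the ubiquitous collagen IV network, and their annotated starts lie 21 bases apart on opposite strands of chromosome 8. Col4a2 had log2 signals of 7.10, 6.99 and 7.61 in NRAS-/- BDL mice, against 6.21, 6.06 and 6.50 in NRAS-/- sham mice, and 7.30, 6.86 and 6.77 in wildtype BDL mice against 5.88, 6.09 and 6.20 in wildtype sham mice. The groups did not overlap, and the log2 fold change was 0.98 (SE 0.19, adjusted p = 0.00463) in NRAS-/- and 0.92 (SE 0.19, adjusted p = 0.00976) in wildtype mice, where the call was lost without N01 (adjusted p = 0.0527). Col4a1 gave 7.13, 7.07 and 7.36 in NRAS-/- BDL mice against 6.73, 6.95 and 6.78 in NRAS-/- sham mice, and 7.35, 7.15 and 7.25 in wildtype BDL mice against 7.01, 6.94 and 6.48 in wildtype sham mice. Every BDL value of Col4a1 lay above the sham values of its genotype as well, by 0.37 (adjusted p = 0.165) and 0.44 (adjusted p = 0.12) on average, which missed the threshold.

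The other collagen IV chains, known from the basement membranes of kidney, lung and smooth muscle, were not called after BDL. Col4a3 had log2 signals of 4.48, 4.91 and 6.38 in NRAS-/- BDL mice, against 4.41, 3.81 and 4.50 in NRAS-/- sham mice, and 4.62, 5.29 and 4.07 in wildtype BDL mice against 4.10, 4.01 and 4.64 in wildtype sham mice. The NRAS-/- difference of 1.02 (SE 0.41, adjusted p = 0.142) was not called, and the highest value belonged to N12, the mouse with muscle transcripts. Col4a4 gave 5.53, 5.48 and 5.47 in NRAS-/- BDL mice against 5.57, 5.84 and 5.80 in NRAS-/- sham mice, and 5.34, 5.51 and 5.34 in wildtype BDL mice against 5.47, 5.98 and 5.40 in wildtype sham mice. Col4a5 gave 3.58, 3.36 and 3.61 in NRAS-/- BDL mice against 3.54, 3.80 and 3.46 in NRAS-/- sham mice, and 3.89, 3.56 and 3.38 in wildtype BDL mice against 3.59, 3.25 and 4.06 in wildtype sham mice. Col4a6 gave 5.30, 5.31 and 5.29 in NRAS-/- BDL mice against 5.57, 5.73 and 5.27 in NRAS-/- sham mice, and 5.44, 5.32 and 5.38 in wildtype BDL mice against 5.15, 5.16 and 5.31 in wildtype sham mice. The log2 fold changes of Col4a4, Col4a5 and Col4a6 ran from -0.24 to 0.18 over both genotypes.

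Of the collagen VI chains, Col6a2 and Col6a3 were called in both genotypes. Col6a3, the long chain that joins Col6a1 and Col6a2 in the monomer, had log2 signals of 7.03, 7.0 and 7.33 in NRAS-/- BDL mice, against 6.26, 6.46 and 6.33 in NRAS-/- sham mice, and 7.74, 7.66 and 6.81 in wildtype BDL mice against 6.21, 6.06 and 6.26 in wildtype sham mice. Its log2 fold change was 0.77 (SE 0.21, adjusted p = 0.027) in NRAS-/- and 1.23 (SE 0.21, adjusted p = 0.00222) in wildtype mice, and the groups did not overlap in either. Col6a2 rose by 0.79 (SE 0.19, adjusted p = 0.0143) in NRAS-/- and 0.70 (SE 0.19, adjusted p = 0.0363) in wildtype mice. In NRAS-/- mice the call of Col6a3 was lost without any 1 of N07 to N12 and that of Col6a2 without N07, N08 or N11 (adjusted p up to 0.0952 and 0.0664), and in wildtype mice that of Col6a2 was lost without N01, N04, N05, N06 or N08 (adjusted p up to 0.152). Col6a1 was higher by 0.34 and 0.35 and not called (adjusted p = 0.363 and 0.405), and Col6a4, Col6a5 and Col6a6, chains that can take the place of Col6a3, ranged from -0.25 to 0.42. None of the 9 FACIT chains, which decorate fibrils without forming them, was called, and none of the short-chain, multiplexin and transmembrane chains.

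**Figure D2:**
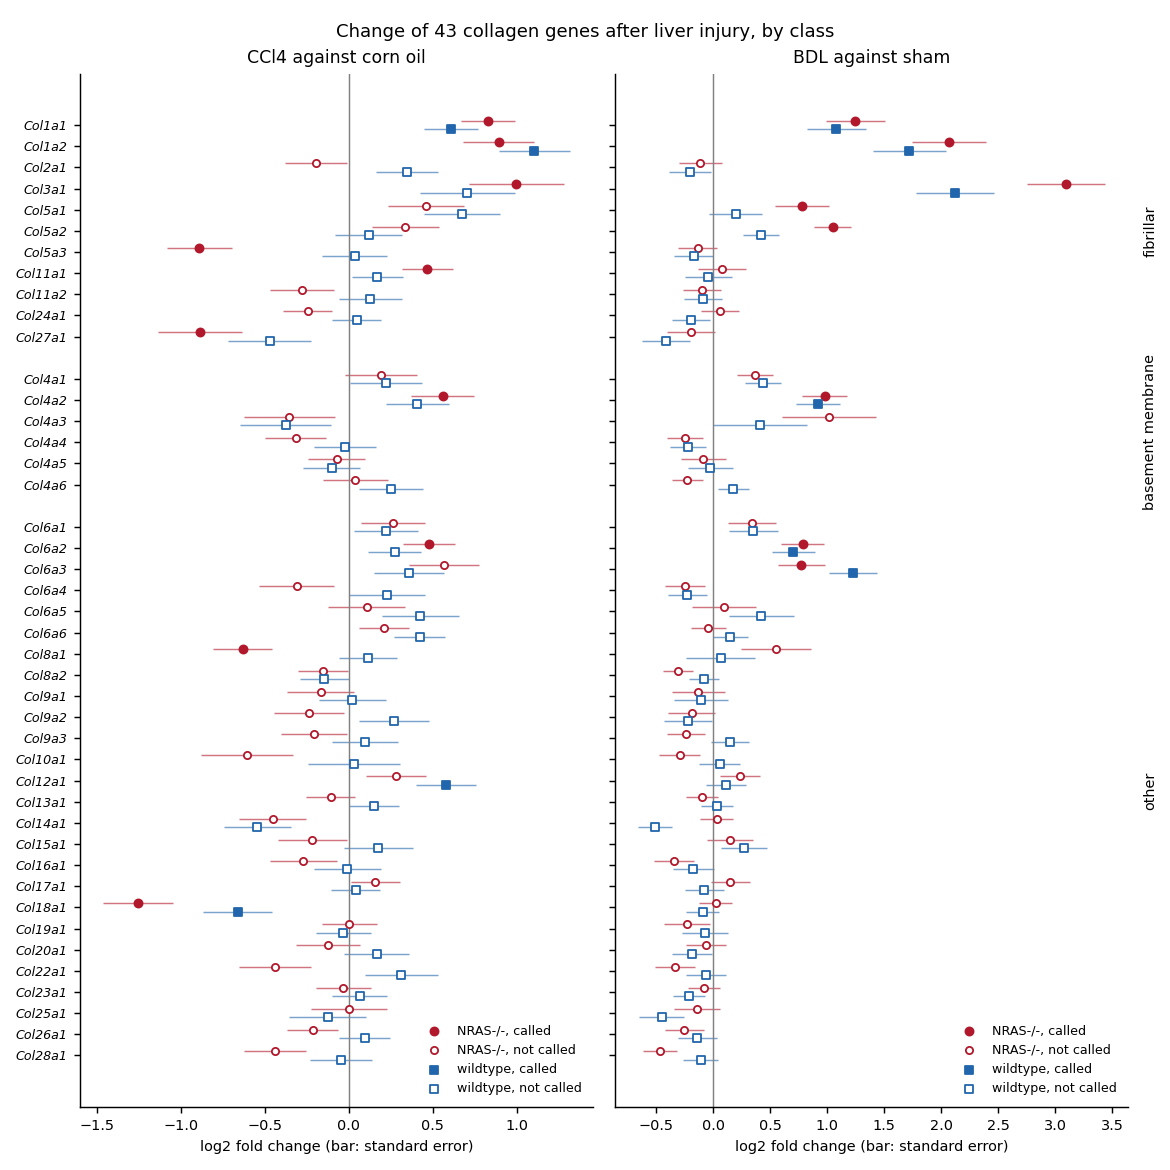
Log2 fold change (horizontal axis) of each of the 43 collagen genes (rows, grouped as fibrillar, basement membrane and other) after CCl4 and after BDL, with NRAS-/- as circles and wildtype as squares. Filled symbols passed the limma test at an adjusted p under 0.05 and bars are standard errors. After BDL the filled symbols all lie right of 0 and reach 3.09, whereas after CCl4 they lie on both sides, between -1.25 and 1.10.

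The arrays in doubt bore on these counts. Without the low Y-linked arrays a single wildtype sham mouse (N02) was left, so its spread was assumed to be that of the other groups, and 0 collagen genes were called higher after BDL in wildtype mice. The log2 fold changes stayed close, at 2.09 for Col3a1 (adjusted p = 0.125), 2.0 for Col1a2 (0.126), 1.34 for Col6a3 (0.116), 0.89 for Col4a2 (0.237), 0.88 for Col1a1 (0.42) and 0.53 for Col6a2 (0.37). No such fit was possible in NRAS-/- mice, which had no sham array of high Y-linked signal. With the Y-linked signal as a term of the fit, Col1a2 and Col3a1 were called in NRAS-/- mice (log2 fold change 2.60 and 3.23, adjusted p = 0.0254 and 0.0129), and Col1a2, Col3a1 and Col6a3 in wildtype mice (2.12, 2.22 and 1.41). This term rests mainly on the wildtype sham mice, where N02 (7.87) stood apart from N01 (3.59) and N03 (3.19) in Y-linked signal. In NRAS-/- mice it therefore cannot separate BDL from the Y-linked signal. Without N12, 6 of the 8 NRAS-/- calls stood, and Col5a1 and Col6a3 were lost. Wildtype BDL mouse N04 had the highest log2 signal of its group in 28 of 43 collagen genes. Oil mice came near this count (24 for NRAS-/- oil N29 and 23 for wildtype oil N21), and it was not taken over all genes. Without N04, 5 wildtype genes were called, Col1a2, Col3a1, Col4a2 and Col6a3 higher and Col27a1 lower.

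Markers of bile duct cells and some markers of mesenchymal cells also changed after BDL. Over all genes, 7.18% were called higher and 4.05% lower in NRAS-/- mice, and 4.51% and 2.70% in wildtype mice. In wildtype mice all 6 cholangiocyte markers were called higher after BDL, and in NRAS-/- mice 4 of 6. The list mean was 7.33, 6.83 and 7.96 in NRAS-/- BDL mice, against 5.34 to 5.49 in NRAS-/- sham mice, and 7.94, 7.07 and 6.91 in wildtype BDL mice against 5.24 to 5.41 in wildtype sham mice. N12 and N04, highest for Col1a1 and Col1a2 in their groups, were also highest for the cholangiocyte list. Of 8 stellate cell and myofibroblast markers, 3 were called higher in NRAS-/- mice (Acta2 by 2.97, Tagln by 1.71 and Pdgfrb by 1.02) and 2 in wildtype mice (Tagln by 1.14 and Pdgfrb by 0.68), where Reln was called lower. The NRAS-/- values include N12, the mouse with muscle transcripts, and are not given without it. The mean of this list was 6.89, 7.17 and 8.01 in NRAS-/- BDL mice N10, N11 and N12, against 6.56 to 6.60 in NRAS-/- sham mice. In wildtype mice it was 7.01, 6.76 and 7.03 after BDL, against 6.59 to 6.81 after sham. Of 5 portal fibroblast markers, Cd34 and Entpd2 were called higher in both genotypes. The macrophage marker Cd68 (1 of 5) was called higher by 1.25 in NRAS-/- mice and 0.90 in wildtype mice, and the endothelial marker Kdr (1 of 6) was called lower by 1.55 in wildtype mice. The part of these cells in the collagen changes was not tested.

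Genes that build and handle collagen were followed in lists. The shares over all genes after BDL were 7.18% higher and 4.05% lower in NRAS-/- mice, and 4.51% and 2.70% in wildtype mice. Of 19 measured genes for folding and modification, 5 were called higher and 0 lower after BDL in NRAS-/- mice and 2 and 0 in wildtype mice. Serpinh1, which encodes the collagen chaperone HSP47, rose by 1.47 and 0.74, and Colgalt1, a collagen galactosyltransferase, by 0.84 and 0.79. Of 10 collagen receptors, 6 and 4 were called higher, with Itga2, an integrin subunit that binds collagen I, up by 2.28 and 2.17 and the receptor kinase Ddr1 up by 1.93 and 1.06. Of 6 collagen-degrading proteases 5 and 2 were called higher, among them Mmp14 (1.47 and 1.33). Of 18 other basement membrane proteins 8 were called higher and 0 lower in NRAS-/- mice, and 3 higher and 1 lower in wildtype mice. Nid1, a linker between laminin and collagen IV, rose by 2.54 and 2.48, and the laminin chain Lamc1 by 1.56 and 0.75. Lum, a proteoglycan of collagen fibrils, rose by 1.81 and 2.01, and Adamts2, which removes the amino-terminal propeptide of collagen I, by 1.28 and 1.06. In each pair NRAS-/- mice are given before wildtype mice, all values are log2 fold changes, and all passed an adjusted p under 0.05 with limma.

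The second question was the response to CCl4. The collagen I genes rose in both genotypes, and Col18a1 fell in both. In NRAS-/- mice 6 collagen genes were called higher and 4 lower after CCl4, and over all genes 13.6% were called higher and 9.19% lower, so the share of collagen genes called (6 of 43 and 4 of 43) was near that of all genes. In wildtype mice 3 were called higher and 1 lower, against 8.08% and 7.16% of all genes. Fibrillar chains gave 4 higher and 2 lower of 11 in NRAS-/- mice and 2 higher and 0 lower in wildtype mice. Basement membrane chains gave 1 higher of 6 (Col4a2) in NRAS-/- mice and 0 in wildtype mice, where 1 had an unadjusted p under 0.05. The 26 other chains gave 1 higher and 2 lower in NRAS-/- mice and 1 higher and 1 lower in wildtype mice. With the multiplexins Col15a1 and Col18a1 counted as basement membrane chains, the lower call of Col18a1 would move to that class in both genotypes. The median change of the fibrillar chains was 0.34 in NRAS-/- and 0.17 in wildtype mice, and over all genes it was -0.02 and 0.01.

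Col1a1 had log2 signals of 7.43, 7.54 and 7.23 in NRAS-/- CCl4 mice N30, N31 and N32, against 6.59, 6.46 and 6.68 in NRAS-/- oil mice. In wildtype mice it was 7.16, 7.46 and 6.99 after CCl4 (N24, N25 and N26), against 6.80, 6.52 and 6.47 after oil. Treated and oil mice did not overlap, and the log2 fold change was 0.83 (SE 0.16, adjusted p = 0.00154) in NRAS-/- and 0.61 (SE 0.16, adjusted p = 0.0176) in wildtype mice, where the call was lost without N22, N23 or N25 (adjusted p up to 0.0991). Col1a2 gave 6.81, 7.09 and 6.90 in NRAS-/- CCl4 mice against 6.23, 5.94 and 5.95 in NRAS-/- oil mice, and 6.63, 7.23 and 6.82 in wildtype CCl4 mice against 6.12, 5.97 and 5.30 in wildtype oil mice. Its log2 fold change of 0.89 (SE 0.21, adjusted p = 0.00627) in NRAS-/- and 1.10 (SE 0.21, adjusted p = 0.00243) in wildtype mice was called without any single array.

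Col3a1 passed the test in NRAS-/- mice and not in wildtype mice. Its log2 signal was 6.94, 7.30 and 6.72 in NRAS-/- CCl4 mice, against 5.71, 6.47 and 5.79 in NRAS-/- oil mice, and 5.99, 7.20 and 6.82 in wildtype CCl4 mice against 5.94, 6.25 and 5.71 in wildtype oil mice. The NRAS-/- groups were apart, whereas wildtype CCl4 mouse N24 lay among the oil mice. The log2 fold change was 1.0 (SE 0.28, adjusted p = 0.0183) in NRAS-/- mice, where the call was lost without N27, N29 or N31 (adjusted p up to 0.0814), and 0.70 (SE 0.28, adjusted p = 0.114) in wildtype mice, where Col3a1 was called once N24 was left out (log2 fold change 1.05, adjusted p = 0.0125). The difference between these responses was 0.29 (95% interval -0.56 to 1.14, adjusted p = 0.769).

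Col5a1 gave 5.09, 5.14 and 4.76 in NRAS-/- CCl4 mice against 4.14, 4.70 and 4.77 in NRAS-/- oil mice, and 4.51, 5.08 and 5.31 in wildtype CCl4 mice against 4.12, 4.62 and 4.15 in wildtype oil mice. Col5a2 gave 4.73, 5.04 and 4.31 in NRAS-/- CCl4 mice against 4.29, 4.37 and 4.41 in NRAS-/- oil mice, and 4.58, 5.11 and 4.42 in wildtype CCl4 mice against 4.67, 4.46 and 4.63 in wildtype oil mice. Treated and oil mice overlapped for both chains in both genotypes and neither chain was called, with log2 fold changes of 0.46 and 0.67 for Col5a1 (adjusted p = 0.174 and 0.0602, NRAS-/- mice first) and 0.34 and 0.12 for Col5a2 (adjusted p = 0.265 and 0.774). Col5a1 was called in wildtype mice without N22, N24 or N27 (log2 fold change 0.67 to 0.90).

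Col4a2 had log2 signals of 6.86, 7.12 and 6.65 in NRAS-/- CCl4 mice, against 6.38, 6.25 and 6.34 in NRAS-/- oil mice, and 6.38, 7.04 and 6.81 in wildtype CCl4 mice against 6.22, 6.59 and 6.19 in wildtype oil mice. It was called in NRAS-/- mice (log2 fold change 0.56, SE 0.19, adjusted p = 0.0416) and not in wildtype mice (0.41, adjusted p = 0.171), and the call was lost without any 1 of N21, N26, N27, N28, N29, N30 and N31 (adjusted p up to 0.163). In wildtype mice Col4a2 was called once N24 was left out (log2 fold change 0.59, limma adjusted p = 0.0481). Col4a1 gave 6.98, 6.63 and 6.97 in NRAS-/- CCl4 mice against 6.48, 6.38 and 7.16 in NRAS-/- oil mice, and 6.97, 6.93 and 7.08 in wildtype CCl4 mice against 6.77, 7.12 and 6.42 in wildtype oil mice. Here treated and oil mice overlapped, with log2 fold changes of 0.19 and 0.22. Col4a3 gave 4.51, 4.14 and 3.55 in NRAS-/- CCl4 mice against 3.82, 4.65 and 4.79 in NRAS-/- oil mice, and 4.00, 4.14 and 3.71 in wildtype CCl4 mice against 4.48, 4.53 and 3.97 in wildtype oil mice, with log2 fold changes of -0.35 and -0.38 that were not called.

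Col4a5 gave 3.43, 3.22 and 3.78 in NRAS-/- CCl4 mice against 3.46, 3.41 and 3.78 in NRAS-/- oil mice, and 3.53, 3.65 and 3.83 in wildtype CCl4 mice against 3.63, 3.88 and 3.80 in wildtype oil mice. Col4a6 gave 4.68, 5.31 and 5.26 in NRAS-/- CCl4 mice against 4.87, 5.01 and 5.25 in NRAS-/- oil mice, and 5.30, 5.79 and 5.61 in wildtype CCl4 mice against 5.51, 5.28 and 5.16 in wildtype oil mice. The groups overlapped for both, and their log2 fold changes lay between -0.10 and 0.25.

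Further rises were small. In NRAS-/- mice Col6a2 was higher by 0.48 (SE 0.16, adjusted p = 0.0391) and Col11a1, a fibrillar chain best known from cartilage, by 0.47 (SE 0.15, adjusted p = 0.0373). The Col6a2 call was lost without any 1 of N27, N28, N30, N31 and N32, and the Col11a1 call without any 1 of N27 to N32. Without NRAS-/- oil mouse N28, the low Y-linked array of this experiment, the higher calls in NRAS-/- mice were Col1a1, Col1a2 and Col3a1 only, and all 4 lower calls stood. Col12a1, a FACIT chain that binds collagen I fibrils, was called in wildtype mice. Its log2 signal was 6.74, 6.15 and 6.27 in NRAS-/- CCl4 mice against 5.95, 6.23 and 6.15 in NRAS-/- oil mice, and 6.65, 6.67 and 6.29 in wildtype CCl4 mice against 6.14, 5.90 and 5.84 in wildtype oil mice. The NRAS-/- groups overlapped (log2 fold change 0.28, adjusted p = 0.306) and the wildtype groups did not (0.58, SE 0.18, adjusted p = 0.0402 with limma, call lost without N22, N23, N24 or N25).

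Col18a1 fell most. It encodes the multiplexin collagen XVIII, a basement membrane proteoglycan that hepatocytes make and whose end fragment is endostatin. Its log2 signal was 9.01, 9.13 and 9.65 in NRAS-/- CCl4 mice, against 10.46, 10.67 and 10.42 in NRAS-/- oil mice, and 9.87, 9.25 and 9.38 in wildtype CCl4 mice against 10.43, 10.14 and 9.91 in wildtype oil mice. Every CCl4 mouse lay below every oil mouse of its genotype. The log2 fold change was -1.25 (SE 0.21, adjusted p = 0.00042) in NRAS-/- mice, called without any single array, and -0.66 (SE 0.21, adjusted p = 0.0413) in wildtype mice, where the call was lost without N21, N22, N25, N26, N27 or N31 (adjusted p up to 0.177). The 5 hepatocyte markers gave 0 calls after CCl4 in either genotype, with list means of 12.83 to 12.86 in NRAS-/- CCl4 mice, 12.86 to 12.93 in wildtype CCl4 mice, 12.85 to 13.07 in NRAS-/- oil mice and 12.53 to 13.01 in wildtype oil mice. These means lie near the highest log2 signal of the series (13.62), and hepatocyte content was not tested.

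Col5a3, Col27a1 and Col8a1 fell in NRAS-/- mice. Col5a3, the third type V chain, had log2 signals of 4.76, 5.23 and 4.62 in NRAS-/- CCl4 mice, against 6.05, 5.58 and 5.64 in NRAS-/- oil mice, and 5.79, 5.85 and 5.48 in wildtype CCl4 mice against 5.87, 5.71 and 5.44 in wildtype oil mice. The 3 NRAS-/- CCl4 mice lay below all other mice of the experiment, and the log2 fold change was -0.89 (SE 0.19, adjusted p = 0.00364) in NRAS-/- and 0.04 (adjusted p = 0.937) in wildtype mice. Col27a1, a fibrillar chain of cartilage, gave 5.60, 4.88 and 5.02 in NRAS-/- CCl4 mice against 6.27, 5.44 and 6.44 in NRAS-/- oil mice, and 5.61, 5.45 and 5.08 in wildtype CCl4 mice against 5.99, 5.84 and 5.72 in wildtype oil mice. Its NRAS-/- groups overlapped in N30 and N28, its log2 fold change was -0.88 (SE 0.25, adjusted p = 0.0177, call lost without N27, N29, N31 or N32) and -0.47 (adjusted p = 0.247), and without N28 the NRAS-/- value was -1.19. Col8a1, a short-chain collagen of vessel walls, gave 4.01, 4.13 and 4.31 in NRAS-/- CCl4 mice against 4.79, 4.63 and 4.93 in NRAS-/- oil mice, and 4.79, 4.93 and 4.30 in wildtype CCl4 mice against 4.64, 4.63 and 4.40 in wildtype oil mice. It was lower by 0.63 in NRAS-/- mice (log2 fold change -0.63, SE 0.17, adjusted p = 0.0151, call lost without N29 or N30) and differed by 0.11 in wildtype mice. Col8a1 lies so low that under a floor of 32 on the linear scale its values were equal in both groups.

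**Figure D3:**
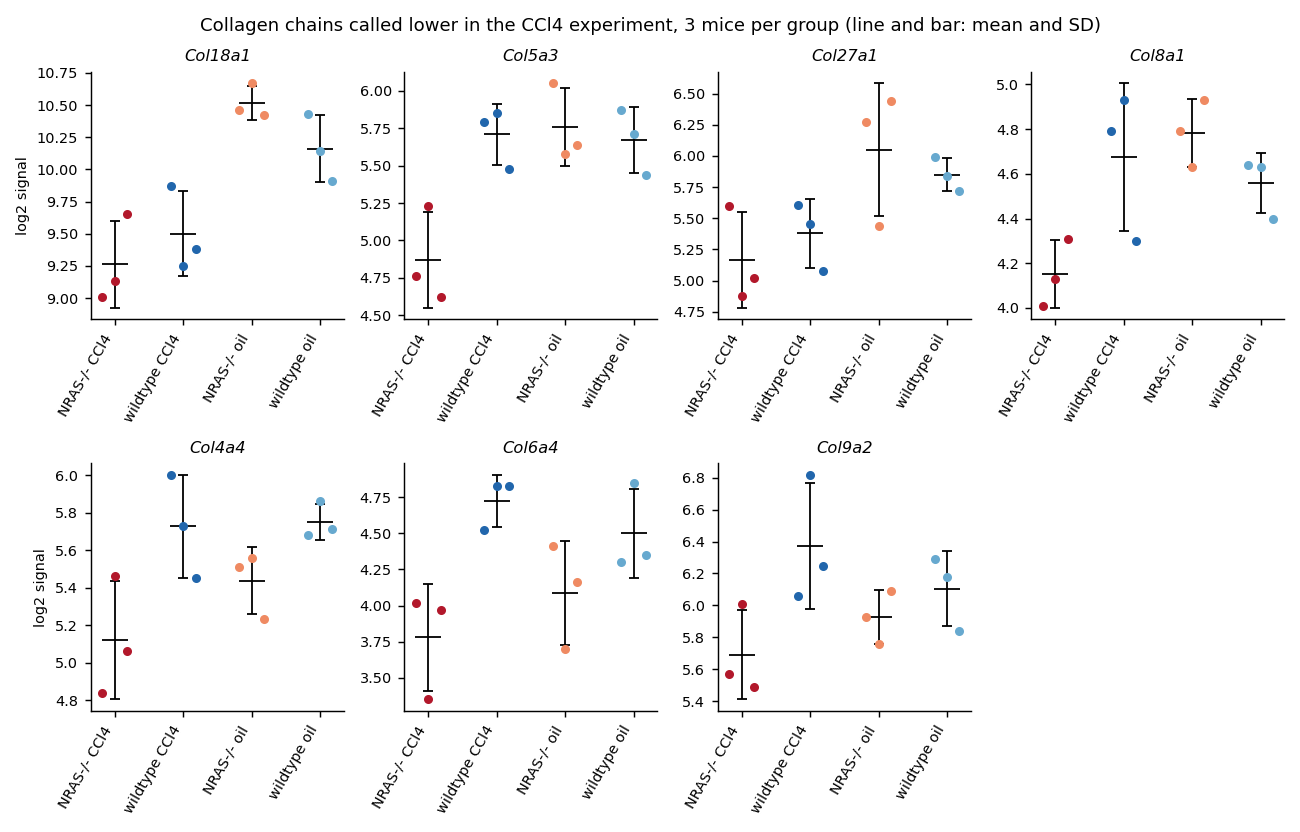
Log2 signal (vertical axis) of 7 collagen chains on each array of the CCl4 experiment, by group along the horizontal axis. Points are mice, long ticks are group means and bars are SD (n = 3). For Col5a3, Col6a4 and Col9a2 the 3 NRAS-/- CCl4 mice lie below all wildtype CCl4 mice, and for Col18a1 both CCl4 groups lie below their oil groups.

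Markers of several cell types moved after CCl4. Over all genes, 13.6% were called higher and 9.19% lower in NRAS-/- mice, and 8.08% and 7.16% in wildtype mice. Of 8 stellate cell and myofibroblast markers, 4 were called higher in NRAS-/- mice (Acta2 by 1.97, Tagln by 1.82, Pdgfrb by 1.32 and Des by 0.63), and 0 in wildtype mice. The list mean was 7.42, 7.68 and 7.21 in NRAS-/- CCl4 mice, 6.51, 7.14 and 7.26 in wildtype CCl4 mice, 6.70 to 6.73 in NRAS-/- oil mice and 6.55 to 6.80 in wildtype oil mice. N24, low for Col3a1, was also the lowest CCl4 mouse for this list. Of 6 cholangiocyte markers, Sox9 was called higher in NRAS-/- mice (by 1.29), and Sox9 and Spp1 in wildtype mice (by 2.35 and 1.66). The cholangiocyte list mean was 5.79 to 6.16 in NRAS-/- CCl4 mice against 5.50 to 5.89 in NRAS-/- oil mice, and 6.03 to 6.48 in wildtype CCl4 mice against 5.54 to 5.67 in wildtype oil mice. Of 5 macrophage markers, Cd68 was called higher (by 1.94) and Clec4f lower (by 0.90) in NRAS-/- mice, and Cd68 and Cd5l higher in wildtype mice (by 1.69 and 0.65). Of 6 sinusoidal endothelium markers, Lyve1 was called higher in NRAS-/- mice (by 2.08) and Kdr lower in wildtype mice (by 0.85), and of 5 portal fibroblast markers Entpd2 was called higher in NRAS-/- mice (by 0.59). The part of these cells in the collagen values was not tested.

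Of the 19 folding and modification genes, 6 were called higher and 1 lower after CCl4 in NRAS-/- mice, and 4 and 0 in wildtype mice. Over all genes the shares were 13.6% and 9.19% in NRAS-/- mice and 8.08% and 7.16% in wildtype mice. P4ha1, a subunit of the prolyl hydroxylase that stabilises the triple helix, rose by 1.22 and 0.71, and Crtap, a component of the prolyl 3-hydroxylase complex, by 0.80 and 0.86. Fkbp14, a prolyl isomerase acting on collagen III, rose by 1.63 in NRAS-/- mice. The proteases gave 5 of 6 and 4 of 6 called higher, with Mmp13, a rodent interstitial collagenase, up by 2.64 and 3.28 and the gelatinase Mmp2 up by 1.01 and 0.64. Of 18 other basement membrane proteins, 5 were called higher and 1 lower in NRAS-/- mice and 3 and 1 in wildtype mice, with Lamc1 up by 2.13 and 2.08 and Nid1 by 1.97 and 1.59. With all arrays in the fit, no collagen IV chain was called in wildtype mice. Of 9 fibril-binding proteoglycans, Lum rose by 1.19 and 1.23 and Prelp fell by 0.42 and 0.50. NRAS-/- mice come first in each pair, and the values are log2 fold changes called by limma.

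The third question was whether the genotypes differed. After CCl4, 0 of 43 collagen genes were called higher in NRAS-/- than in wildtype livers (0 also at an unadjusted p under 0.05) and 4 were called lower, against 8.72% of all genes higher and 5.56% lower. The median difference was -0.20 over the collagen genes and -0.04 over all genes. The scar-forming chains differed little, with log2 differences of 0.20 for Col1a1 (95% interval -0.14 to 0.54), 0.03 for Col1a2 (-0.42 to 0.48) and 0.32 for Col3a1 (-0.28 to 0.92). These intervals leave room for differences in either direction. The 4 lower genes were Col6a4, Col5a3, Col9a2 and Col4a4, from 3 classes. In wildtype mice none of the 4 was called after CCl4 against oil, where Col9a2 differed by 0.27, Col6a4 by 0.23, Col5a3 by 0.04 and Col4a4 by -0.02 on the log2 scale.

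Col6a4 had log2 signals of 4.02, 3.35 and 3.97 in NRAS-/- CCl4 mice, against 4.52, 4.83 and 4.83 in wildtype CCl4 mice, and 4.41, 3.70 and 4.16 in NRAS-/- oil mice, against 4.30, 4.85 and 4.35 in wildtype oil mice. The CCl4 groups did not overlap (log2 difference -0.95, SE 0.22, adjusted p = 0.0113, call lost without N31 at an adjusted p of 0.0544), and all 12 values are so low that a floor of 32 made the groups equal. Col5a3, whose values are given above, differed by -0.84 (SE 0.19, adjusted p = 0.00987) and was called without any single array. Col9a2, a FACIT chain of cartilage, gave 5.57, 6.01 and 5.49 in NRAS-/- CCl4 mice, against 6.06, 6.82 and 6.25 in wildtype CCl4 mice, and 5.93, 5.76 and 6.09 in NRAS-/- oil mice, against 6.29, 6.18 and 5.84 in wildtype oil mice. Its CCl4 groups did not overlap but came within 0.05 of each other, with a log2 difference of -0.68 (SE 0.21, adjusted p = 0.0401).

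Col4a4 gave 4.84, 5.46 and 5.06 in NRAS-/- CCl4 mice, against 6.0, 5.73 and 5.45 in wildtype CCl4 mice, and 5.51, 5.56 and 5.23 in NRAS-/- oil mice, against 5.68, 5.86 and 5.71 in wildtype oil mice. Its CCl4 groups overlapped by 0.01, at N31 and N26, and the log2 difference was -0.61 (SE 0.18, adjusted p = 0.0388). Leaving out wildtype mouse N24 or N25 or NRAS-/- mouse N30 or N32 ended the call of Col4a4 (highest adjusted p 0.158), and for Col9a2 the same held of N22, N25 and N26 among wildtype and N30 and N32 among NRAS-/- mice (highest adjusted p 0.183). Wildtype CCl4 mouse N25 had the highest log2 signal of its group in 28 of 43 collagen genes, a count that was not taken over all genes. Without N25 or N30 the count of lower genes was 2, Col5a3 and Col6a4. While no collagen was called higher, 3 of 8 stellate cell markers were called higher in NRAS-/- than in wildtype CCl4 livers (Acta2 by 1.26, Tagln by 1.15 and Pdgfrb by 0.92), and so were 3 of 18 other basement membrane proteins, among them Npnt, an integrin ligand, by 1.39. Over all genes, 8.72% were called higher and 5.56% lower in this comparison. Fkbp14 was 0.77 higher. The sinusoidal endothelium markers Stab2 and Kdr (2 of 6) were called higher by 0.68 and 0.75, the portal fibroblast marker Cd34 (1 of 5) by 0.88 and the macrophage marker Cd68 (1 of 5) by 1.05. The cholangiocyte marker Sox9 (1 of 6) was called lower by 0.97. The part of these cells in the 4 lower collagens was not tested.

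In oil mice no collagen gene was called between genotypes, with 1 at an unadjusted p under 0.05 (0.534% of all genes were called higher and 0.312% lower). Col6a6 had log2 signals of 4.12, 4.21 and 4.10 in NRAS-/- oil mice, against 3.86, 3.74 and 3.55 in wildtype oil mice (log2 difference 0.42, adjusted p = 0.251), and Col19a1, a FACIT-like chain, gave 4.93, 4.47 and 4.80 against 5.03, 5.06 and 5.08 (-0.32, adjusted p = 0.448). Whether the response to CCl4 differed between genotypes was tested as an interaction, in which 0 collagen genes were called, 3 had an unadjusted p under 0.05, all on the lower side, and 1.32% of all genes were called higher and 1.04% lower. The smallest p belonged to Col5a3 (difference of responses -0.92, 95% interval -1.51 to -0.34, adjusted p = 0.0896) and Col8a1 (-0.75, adjusted p = 0.126). In a fit of all 24 arrays Col5a3 was called (adjusted p = 0.0496). Col18a1, called lower in both genotypes, gave -0.59 (95% interval -1.21 to 0.03, adjusted p = 0.319).

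After BDL, 0 collagen genes were called between genotypes, and 0 had an unadjusted p under 0.05, where 0.525% of all genes were called higher and 0.180% lower. Col3a1 had the smallest p, and its 3 NRAS-/- BDL values (8.61 to 8.99) lay inside the range of the 3 wildtype BDL values (7.17 to 9.06). The log2 difference was 0.73 (95% interval -0.00 to 1.46, adjusted p = 0.418). Col1a1 and Col1a2 differed by 0.39 (-0.16 to 0.95) and 0.46 (-0.23 to 1.16). Col14a1, a FACIT chain, gave 6.33, 6.36 and 6.33 in NRAS-/- BDL mice against 5.78, 6.11 and 6.21 in wildtype BDL mice (0.30, adjusted p = 0.437). Between NRAS-/- sham and wildtype sham mice no collagen gene was called either, although unadjusted values of p fell below 0.05 for 1 gene on the higher side and 2 on the lower (0.246% and 0.180% of all genes were called), and Col5a2 and Col5a1, given above, had the smallest p. The interaction of genotype and BDL gave 0 calls over all genes (0% in either direction), and 2 collagen genes had an unadjusted p under 0.05 on the higher side. They were Col5a2 (0.63, 95% interval 0.14 to 1.11, adjusted p = 0.666) and Col14a1 (0.54, adjusted p = 0.693). Col14a1 stood at 6.13, 6.55 and 6.24 in NRAS-/- sham mice and 6.55, 6.56 and 6.52 in wildtype sham mice. Col3a1 gave 0.97 (95% interval -0.06 to 2.01).

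The last comparison set the response to BDL against the response to CCl4 within a genotype, in a fit of all 24 arrays. The models also differ in injury, controls and experiment, and these cannot be told apart from each other. In NRAS-/- mice 3 collagen genes were called higher, meaning a more positive response to BDL, and 0 lower, against 4.74% and 4.40% of all genes. The difference was 2.10 for Col3a1 (SE 0.48, adjusted p = 0.00663), 1.28 for Col18a1 (SE 0.25, adjusted p = 0.00213) and 1.18 for Col8a1 (SE 0.37, adjusted p = 0.0471). Col3a1 rose in both models and by more after BDL, whereas Col18a1 fell after CCl4 and stood at 10.14, 10.15 and 10.31 in NRAS-/- BDL mice against 10.25, 10.24 and 10.04 in NRAS-/- sham mice (log2 fold change 0.02). Col8a1 fell after CCl4 and was 5.20, 4.43 and 4.92 in NRAS-/- BDL mice against 4.47, 4.42 and 4.01 in NRAS-/- sham mice (0.55, adjusted p = 0.305), and its difference between the models was called in only 6 of 24 fits with 1 array left out, while those of Col3a1 and Col18a1 were called in all 24. Col1a2 followed at 1.18 (95% interval 0.32 to 2.03, adjusted p = 0.0786), and was called without N04.

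In wildtype mice no collagen gene was called in this comparison, 3 had an unadjusted p under 0.05, and 1.56% of all genes were called higher and 1.40% lower. Col3a1 gave 1.42 (95% interval 0.42 to 2.41, adjusted p = 0.126) and Col6a3 gave 0.87 (0.24 to 1.51, adjusted p = 0.144), and both were called without wildtype BDL mouse N06 (1.89 and 1.17). Among genes called higher, Col1a1, Col1a2, Col3a1, Col4a2 and Col6a2 were shared by the models in NRAS-/- mice (5 of the 6 called after CCl4 and 5 of the 8 after BDL), and Col1a1 and Col1a2 in wildtype mice (2 of 3 and 2 of 6).

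**Figure D4:**
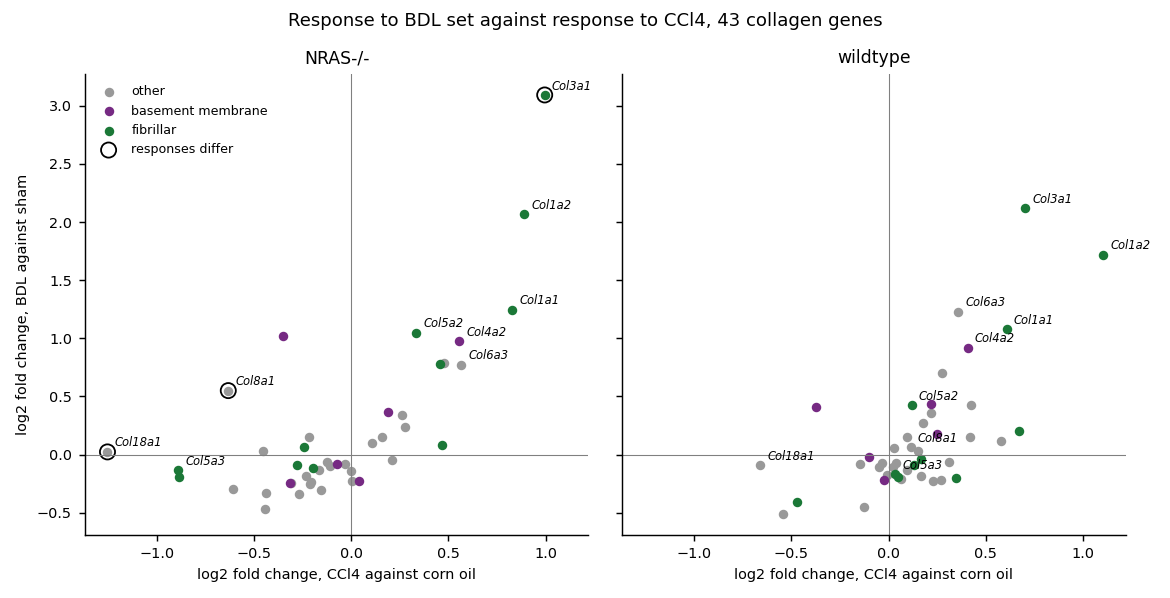
Log2 fold change after BDL (vertical axis) against log2 fold change after CCl4 (horizontal axis) for the 43 collagen genes, in NRAS-/- mice on the left and wildtype mice on the right, coloured by class. Rings mark genes whose 2 responses differed at an adjusted p under 0.05 with limma, Col3a1, Col18a1 and Col8a1, all in NRAS-/- mice.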

How the data were processed

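The log2 signal of every probe set on every array was taken from the deposited tables without change. The authors' normalization is not given in the sources used here, and the submitters' processing notes name MAS5 without role or version. The linear intensity of each group that the authors deposited equals the mean over its arrays and served only as a check. The authors' ratios and p-values per probe set hold their own comparisons and were not used. Cy3 labelling in the protocol and biotin in the label field disagree.

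Of 22206 probe sets, 21367 carried 1 symbol (883 symbols were updated to GRCm38.p6). For 143 genes with several probe sets, the one with the highest mean was kept. A linear model was fitted per experiment, over its 12 arrays, in limma 3.58.1 (R 4.3.3), each group having its own coefficient in lmFit, followed by eBayes at default settings. Benjamini-Hochberg adjustment ran over all 21144 genes, with 0.05 as the threshold for a call. Intervals are 95% intervals of limma, not adjusted. data.table (1.17.8), pandas 2.3.3 and matplotlib 3.10.9 under python 3.11.15 read, tabulated and drew the data. Differences between the responses to BDL and CCl4 were fitted on all 24 arrays. The fits were tested on simulated data.

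Collagen members, classes and lists, and all comparisons were chosen with earlier results of these data known. The text names Col1a1, Col1a2, Col3a1, Col5a1, Col5a2 and Col4a1 to Col4a6, the 3 chains with the largest called change in each direction after each treatment, every chain called between genotypes or, with none called, the 2 with the smallest p, and from each gene list up to 4 genes with the smallest adjusted p. Other collagens and N-numbered arrays outside this rule were named after their values were seen. Alternatives were a fit of the compared groups only, a fit of all 24 arrays, quantile normalization, a filter at the 40th percentile of gene means, a floor of 32, trended and robust eBayes, the methods' t-test with adjustment, all probe sets, other class borders, leaving out the low Y-linked arrays or each array, and, added after seeing the data, the Y-linked signal as a term.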

Additional observations from a re-analysis of the deposited data

Results flagged for a closer look

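The response to BDL differed from the response to CCl4 in NRAS-/- mice, by a test of the difference itself, for 3 of 43 collagen genes: Col3a1 by 2.10 (SE 0.48, limma adjusted p = 0.00663), Col18a1 by 1.28 (SE 0.25, adjusted p = 0.00213) and Col8a1 by 1.18 (SE 0.37, adjusted p = 0.0471) on the log2 scale. Over all genes 4.74% were called higher and 4.40% lower in this comparison. The Col8a1 difference was called in only 6 of 24 fits with 1 array left out and was lost under a floor of 32. The Y-linked signal was low in the NRAS-/- sham mice (3.27 to 3.56) and high in the NRAS-/- BDL mice (7.47 to 7.79). With it as a term the differences were 2.37 (adjusted p = 0.00613), 1.43 (0.00219) and 1.11 (0.119). The term rests mainly on the wildtype sham and NRAS-/- oil mice, so it cannot separate BDL from the Y-linked signal in NRAS-/- mice. Groups of 3 mice were too small to look for single deviating arrays by rule.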

How the results depend on the processing

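Col1a2 and Col3a1 after BDL in NRAS-/- mice, and Col1a1, Col1a2 and Col18a1 after CCl4 in NRAS-/- mice, were each called under every alternative that could be fitted. No alternative separated BDL from the Y-linked signal in NRAS-/- mice. Some other counts of called collagen genes moved by over 1.5 times under at least 1 alternative. Between genotypes, higher calls after CCl4 and all calls in oil, BDL and sham mice stayed at 0 with any 1 array left out.

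With a floor of 32, the counts after CCl4 were 3 higher and 2 lower in NRAS-/- mice and 0 lower in wildtype mice, 1 was lower between genotypes after CCl4, and 5 were higher after BDL in NRAS-/- mice. The methods' t-test gave 3 higher and 1 lower after CCl4 in NRAS-/- mice, 0 and 0 in wildtype mice, 0 lower between genotypes after CCl4, 3 higher after BDL in NRAS-/- mice and 0 in wildtype mice. Without the low Y-linked arrays the counts were 3 higher after CCl4 in NRAS-/- mice and 0 higher after BDL in wildtype mice. With the Y-linked signal as a term, an alternative chosen after seeing the data, they were 3 higher after CCl4 in NRAS-/- mice, and 2 and 3 higher after BDL in NRAS-/- and wildtype mice. A fit of all 24 arrays gave 2 lower after CCl4 in wildtype mice and 1 lower in the interaction with CCl4, and a fit of the compared groups gave 2 lower between genotypes after CCl4. Quantile normalization and the filter at the 40th percentile each gave 1 lower after BDL in NRAS-/- mice (Col28a1) and 1 in wildtype mice (Col14a1). The cause of these shifts was not tested, apart from the floor, which sets dim values equal.

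With each array left out in turn, after CCl4 the counts were 2 to 7 higher and 3 to 4 lower in NRAS-/- mice, 1 to 5 higher and 0 to 1 lower in wildtype mice, and 2 to 6 lower between genotypes. After BDL they were 5 to 8 higher and 0 to 1 lower in NRAS-/- mice and 3 to 6 higher and 0 to 1 lower in wildtype mice. A more positive response to BDL than to CCl4 was called for 2 to 5 genes in NRAS-/- and 0 to 2 in wildtype mice.

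No called value turned its direction under any alternative. Of the 35 calls, the methods' t-test ended 25 of the 32 it could test, the floor 16, the Y-linked term 13, leaving out the low Y-linked arrays 9 of 24, quantile normalization 5, the fit of the compared groups 5, the fit of all arrays 3 of 32, trended and robust eBayes 2, and all probe sets 0. The filter ended 0 of the 29 calls it kept. BDL in NRAS-/- mice without the low Y-linked arrays was not run, since no sham array remained. No paired analysis was possible because the groups share no replicate numbers. Signal over background was not measured here, and chains below the floor on all arrays of a comparison, such as Col8a1 and Col6a4 in the CCl4 experiment, have no difference left above it.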
